A study of Mus musculus with 3 samples.

Results

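The genes described here belong to 5 naming families that mostly encode RING-type and F-box ubiquitin ligase proteins. They are every mouse gene whose official symbol starts with Trim, Rnf, Fbxo, Fbxl or Fbxw. The choice used the name only and no measured value. RefSeq lists 237 such symbols, 233 of them protein coding, and 108 of the 237 held at least 1 binding cluster of the RNA-binding protein CELF1. These 108 genes carried 769 of the 72222 clusters in the series and made up 108 of the 8037 genes with a cluster. The other 129 symbols had no cluster in any library.

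CELF1 binding was mapped by CLIP-seq: RNA and protein in contact are joined by ultraviolet light (254 nm), CELF1 is pulled down, and the RNA fragments that come with it are sequenced. Heart ventricle and muscle came from C57/BL6 mice of 16 weeks, and the labels do not say which muscle was taken. The last library was made from cultured myoblasts of the established mouse line C2C12, which are precursors of skeletal muscle fibres. All 3 libraries used the monoclonal antibody 3B1 against the CELF1 protein that the cells make themselves, and no group carried a transgene or a treatment. A cluster is a short stretch that held more reads than a Poisson model of the gene's expression and unspliced length allowed. Each source has 1 library, so differences between sources could not be checked against replicates. Intervals and p-values refer to these 3 libraries and to the error of counting alone, and clusters within a gene are not independent.

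Ubiquitin ligases are the last step of a relay in which an activating enzyme (E1) passes ubiquitin to a conjugating enzyme (E2), and the ligase (E3) brings the loaded E2 to a substrate. RING proteins, among them most Trim proteins and most Rnf proteins, bind the E2 directly. F-box proteins act inside SCF complexes, where the adaptor Skp1 and the cullin Cul1 link them to the RING protein Rbx1. Fbxl proteins recognise substrates through leucine-rich repeats and Fbxw proteins through WD40 repeats, while Fbxo proteins carry other or no known substrate domains. In striated muscle, Trim63 (MuRF1) and Fbxo32 (atrogin-1) are known for their part in the breakdown of muscle protein during atrophy. CELF1 is known to bind RNA rich in GU, with UGU at the core of its motif. It acts in splicing when bound in introns or in alternative exons, and in mRNA decay when bound in 3' UTRs.

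Sequences marked by clusters of all 3 libraries are shown first, since they are the positions in these genes that every library marked. Clusters of heart, muscle and C2C12 had a stretch in common at 11 places in the 3' UTRs of 5 genes (Trim35, Fbxl14, Fbxl5, Rnf20 and Trim44) and at 1 place in an intron, in Fbxo28. Of these, 8 are shown, with at least 1 for each gene. Each line gives up to 30 nt of such a stretch, read 5′ to 3′ on the RNA strand from the mm9 genome, with every UGU in capitals. The window is the one richest in UGU where the common stretch is longer.
Trim35 3' UTR, chr14:66928208-66928237, plus strand: ccUGUcuuagcuuuucUGUagcuccaaagu
Trim35 3' UTR, chr14:66929740-66929769, plus strand: gauuccaucgUGUgcagugaaUGUgcUGUg
Trim35 3' UTR, chr14:66929839-66929868, plus strand: aauuUGUGUgcaaguuuUGUGUggcUGUGU
Fbxl14 3' UTR, chr6:119431734-119431763, plus strand: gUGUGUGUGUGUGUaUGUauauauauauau
Trim44 3' UTR, chr2:102141428-102141457, minus strand: ucccuuccuggagUGUGUGUGUGUGUGUGU
Rnf20 3' UTR, chr4:49669043-49669072, plus strand: cguuUGUcuucccuucagcuuucuuUGUGU
Fbxl5 3' UTR, chr5:44147863-44147877, minus strand: uUGUuUGUuUGUuug
Fbxo28 intron, chr1:184262096-184262125, minus strand: UGUcagacgccguugacuaaugcuucgUGU
In Fbxl5, the transcript with the longest coding sequence has this place in intron 9 of 10. It is 3' UTR in another annotated transcript. Fbxl14 and Trim44 held long GU repeats, with 7 and 8 UGU in the window. Rnf20 and the first Trim35 window held 3 and 2 UGU on either side of pyrimidine-rich sequence, and 2 of those in Rnf20 overlapped.

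The 91 bound ligase genes in heart held 438 clusters, or 1.04% of the 42263 clusters of that library (95% exact Clopper-Pearson interval 0.942 to 1.14%). In muscle 72 genes held 285 of 24844 clusters, 1.15% (1.02 to 1.29%), and in C2C12 29 genes held 46 of 5115, 0.899% (0.659 to 1.20%). The 3 intervals overlap. Bound means at least 1 cluster. Read against all genes with a cluster in any library, 84.3% of the ligase genes were bound in heart, where the value over all 8037 genes was 85.3%. In muscle 66.7% were bound, against 66.5% over all genes. In C2C12 26.9% were bound, against 34.3% over all genes. The ligase genes thus lay near the background in both tissues. In C2C12, the library with the fewest clusters, their value was lower on 29 genes, and whether this exceeds counting error was not tested.

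Of the 108 genes, 17 were bound in all 3 libraries (15.7%, against 22.7% over all genes). Another 46 were bound in heart and muscle but not in C2C12, which was 42.6% of the ligase genes against 34.2% over all genes. Heart alone held 24 (22.2%, against 23.4% over all genes). Muscle alone held 9 (8.33%, against 8.05%), and C2C12 alone held 8 (7.41%, against 5.13%). Among protein-coding genes as a whole, clusters were found in 46.4% of the ligase genes and in 36.6% of all RefSeq protein-coding genes. Expression of the genes was not measured in these files.

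The families differed in how many of their genes were bound at all. Clusters lay in 20 of 36 Fbxo genes, 45 of 87 Rnf genes, 9 of 19 Fbxl genes, 29 of 71 Trim genes and 5 of 24 Fbxw genes. The low Fbxw count rests on a run of closely related genes, Fbxw13 to Fbxw28, in which 0 of 16 had a cluster in any library. Among the 11 genes of the Trim5, Trim6, Trim12, Trim30 and Trim34 groups on chromosome 7, Trim12a, Trim12c and Trim30a were bound, with 3, 1 and 1 clusters, all in heart. These copies are near-identical in parts and the authors kept uniquely mapping reads only, so their counts are uncertain.

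Counts per gene were uneven. Among bound ligase genes, the median was 4 clusters in heart, 3 in muscle and 1 in C2C12, and 82.8% of the 29 genes bound in C2C12 rested on a single cluster, against 60.1% over all genes bound there. The 10 ligase genes with the most clusters held 31.5% of the ligase clusters in heart, 37.2% in muscle and 58.7% in C2C12. Longer genes tended to hold more of them. Across the 108 genes, Spearman's rho between gene length and intron clusters was 0.56 in heart, 0.42 in muscle and 0.30 in C2C12, and that between 3' UTR length and 3' UTR clusters was 0.35, 0.32 and 0.07. These are descriptions over genes that share libraries, and the part of length in the counts below was not tested.

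**Figure D1:**
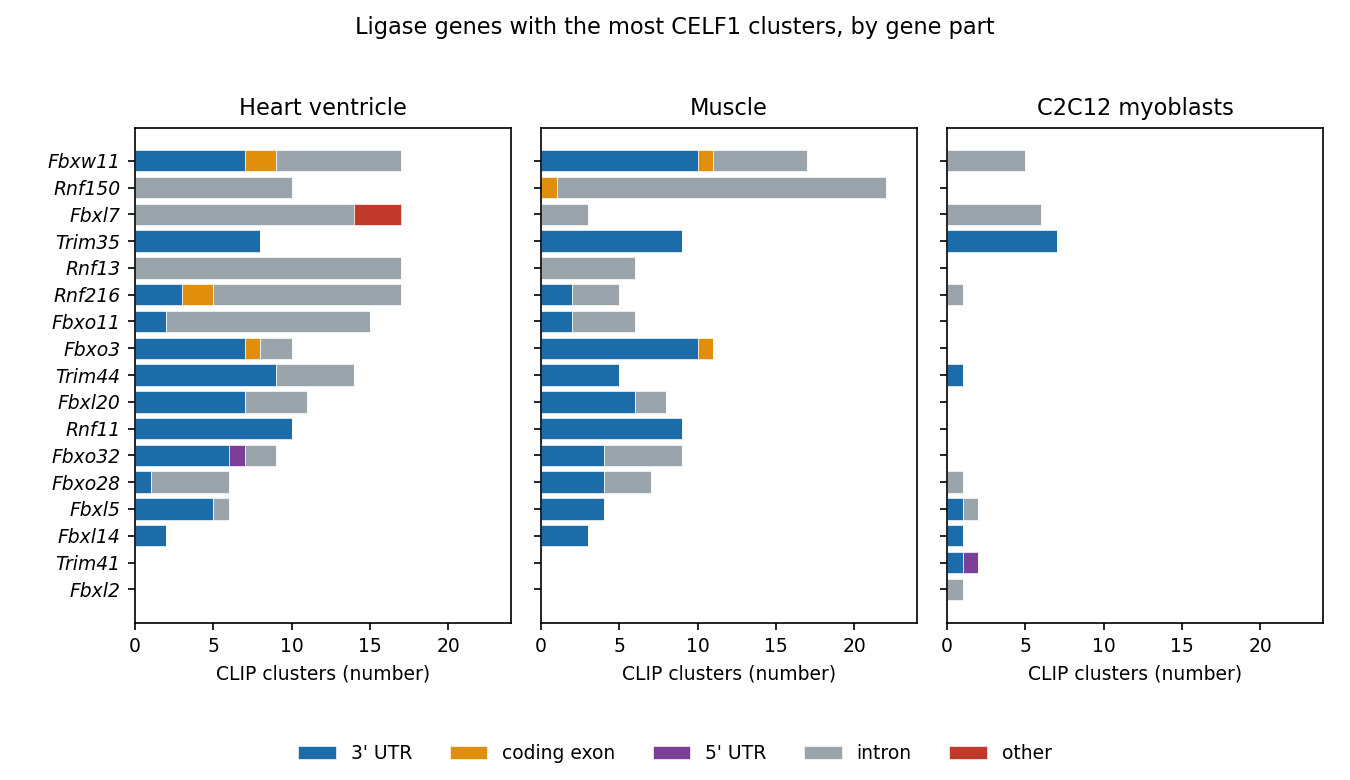
Number of CELF1 clusters (horizontal axis) in the ligase genes with the most clusters in each library, 1 panel per library, with bars split by the part of the gene that holds the cluster midpoint. Rnf150 reached 22 in muscle and 10 in heart, almost all in introns, Trim35 held 3' UTR clusters in every library (8, 9 and 7), and 7 of the 17 genes had 0 in C2C12.

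Fbxw11 (beta-TrCP2), the F-box protein that recognises phosphorylated beta-catenin and inhibitors of NF-kappa-B, had 17 clusters in each tissue and 5 in C2C12. Of these, 7 in heart and 10 in muscle lay in the 3' UTR and none of those in C2C12 did, since all 5 were intronic. In heart and muscle, 9 and 10 of its clusters shared at least 1 base with a cluster of the other tissue. Only 2 of the 5 C2C12 clusters overlapped one of heart, and 0 overlapped one of muscle.

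Among the other F-box genes, Fbxo11, which targets the repressor Bcl6, held 15 clusters in heart, 6 in muscle and 0 in C2C12, 13 and 4 of them in introns. Of its heart clusters, 11 lay in intron 1 of 22, an intron of 49296 nt. Fbxo3 had 10, 11 and 0 clusters, 7 and 10 of them in the 3' UTR. Fbxl20, known in mouse neurons for degrading a protein of the presynaptic active zone, had 11, 8 and 0 clusters, with 7 in the 3' UTR in heart and 6 in muscle. Fbxo3 and Fbxl20 thus carried mainly 3' UTR clusters and Fbxo11 mainly intron clusters.

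Fbxl5, the iron-sensing F-box protein that marks iron regulatory protein for degradation, held 6 clusters in heart, 4 in muscle and 2 in C2C12, of which 5, 4 and 1 lay in the 3' UTR. The C2C12 one, with the heart and muscle clusters it overlaps, lies at the place shown above. That place is intronic in the transcript with the longest coding sequence. Fbxl14, which targets the transcription factor Snail, had 2, 3 and 1, all in the 3' UTR. Fbxo28 had 6, 7 and 1, and its single C2C12 cluster lay in intron 1, where it overlapped clusters of heart and muscle at the sequence shown above.

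Among the RING genes, Rnf13 and Rnf150 belong to the same group of membrane-spanning ligases with a protease-associated domain. Rnf13 held 17 clusters in heart, 6 in muscle and 0 in C2C12, and all 23 were intronic although its annotated 3' UTR is 2736 nt long. In heart 7 of the 17 lay in intron 3 of 9, and the others were spread over 7 further introns. Rnf216, a ligase of the RING-between-RING type, had 17, 5 and 1, with 12 of the heart clusters in introns. All 5 of its muscle clusters overlapped a heart cluster.

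Rnf11, a small RING protein of the A20 complex, was of the opposite kind, with 10 clusters in heart, 9 in muscle and 0 in C2C12, all in a 3' UTR of 3153 nt. Of these, 8 of 10 in heart and 9 of 9 in muscle overlapped a cluster of the other tissue. Rnf2 (Ring1B), the Polycomb ligase of histone H2A, had 5, 4 and 1 clusters. It carried 3' UTR clusters in all 3 libraries, but no base was common to all 3. Rnf20, the ligase that marks histone H2B, had 1, 3 and 1, all in the 3' UTR.

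Among the Trim genes, Trim44 held 14 clusters in heart, 5 in muscle and 1 in C2C12, of which 9, 5 and 1 lay in the 3' UTR. Trim35, first described in haematopoietic cells, had 8, 9 and 7, all in the 3' UTR. Trim24 had 7, 7 and 0, all in introns, and only 1 of the 7 heart clusters overlapped one of muscle. Trim24 is outside the rule for named genes and was chosen after its values were seen.

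The part of the gene that held the clusters differed between the libraries. In heart, 179 of 438 ligase clusters lay in 3' UTRs (40.9%, 36.2 to 45.6%) and 220 in introns (50.2%, 45.4 to 55.0%). In muscle, 169 of 285 lay in 3' UTRs (59.3%, 53.3 to 65.1%) and 101 in introns (35.4%, 29.9 to 41.3%). In C2C12, 18 of 46 lay in 3' UTRs (39.1%, 25.1 to 54.6%) and 26 in introns (56.5%, 41.1 to 71.1%). Heart and muscle were apart by more than their counting intervals, and the wide C2C12 intervals overlapped those of heart and of muscle for both parts. With clusters of at least 50 nt only, the order of the parts turned in heart, with 49.3% in 3' UTRs and 41.4% in introns.

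Muscle also had the highest 3' UTR share and the lowest intron share over all genes. In all clusters, 3' UTRs took 33.0% in heart, 50.1% in muscle and 33.9% in C2C12, and introns took 58.7%, 43.2% and 60.5%. The intervals of the ligase clusters lay above the 3' UTR share of all genes in both tissues, and included it in C2C12. Coding exons held 7.31% of the ligase clusters in heart, 4.91% in muscle and 2.17% in C2C12, against 5.74%, 4.57% and 3.81% over all genes, which lie inside the ligase intervals.

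**Figure D2:**
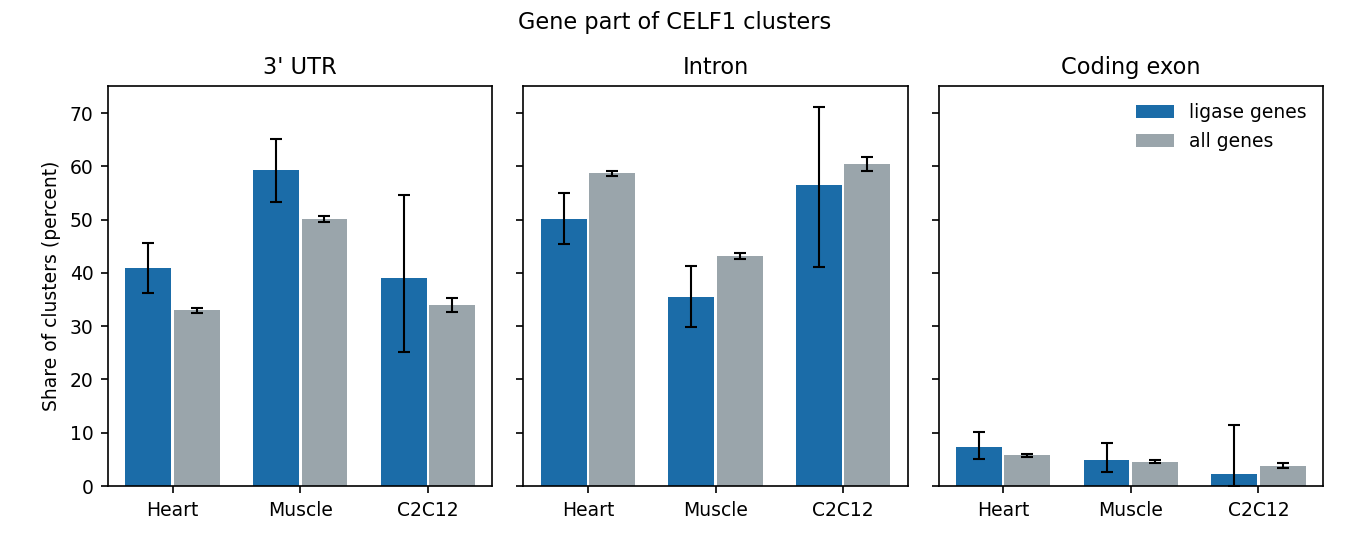
Share of CELF1 clusters (percent, vertical axis) in 3' UTRs, introns and coding exons in heart, muscle and C2C12, for ligase genes and for all genes, with 95% Clopper-Pearson intervals as error bars. The 3' UTR share of ligase clusters was 40.9% in heart, 59.3% in muscle and 39.1% in C2C12, each above the share over all genes, with an interval in C2C12 wide enough to include it.

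Counted by gene, 56 ligase genes had a 3' UTR cluster in heart, 51.9% of the 108, against 51.6% over all genes. In muscle 52 did (48.1%, against 45.0% over all genes) and in C2C12 12 did (11.1%, against 14.2%). A 3' UTR cluster in all 3 libraries was found in 7 genes, among them Fbxl14, Fbxl5, Rnf2, Rnf20, Trim35 and Trim44 (6.48%, against 9.63% over all genes). Intron clusters were found in 64 genes in heart (59.3%, against 58.6%), in 35 in muscle (32.4%, against 38.8%) and in 17 in C2C12 (15.7%, against 22.6%). Coding exon clusters were found in 23 genes in heart (21.3%, against 18.3%), in 12 in muscle (11.1%, against 9.39%) and in 1 in C2C12 (0.926%, against 2.34%). By gene, heart and muscle were nearly equal for the 3' UTR, and heart was ahead for introns and for coding exons.

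Within single genes the shift ran mostly one way. Of the 63 ligase genes bound in both tissues, the 3' UTR share of the gene's own clusters was higher in heart in 6, lower in heart in 30 and equal in 27. Over all 4573 genes bound in both tissues it was higher in heart in 17.5%, lower in 40.4% and equal in 42.2%, where the ligase genes had 9.52%, 47.6% and 42.9%. Among the striated muscle ligases listed below, the 6 that went the other way included Trim63, Fbxo32 and Fbxo21. Fbxo30 had a lower share in heart, and Trim32, Trim54, Trim72 and Fbxo40 were equal. For Trim63 the shares were 5 of 6 clusters in heart and 3 of 4 in muscle. Beside the difference in gene part stands the higher number of clusters in heart, and its part in the difference was not tested.

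Of the 54 ligase genes with at least 5 clusters in heart and muscle together, 9 carried all of these in the 3' UTR (among them Fbxl14, Fbxo45, Rnf11, Rnf44, Rnf6, Rnf7, Trim32 and Trim35) and 6 carried all of them in introns (Fbxo34, Fbxw4, Rnf13, Trim24, Trim3 and Trim54). Another 23 had more than 50% in the 3' UTR and another 10 more than 50% in introns. Coding exons held more than 50% only in Fbxo40 and Rnf139. The same classes were not counted over all genes, so this split cannot be read as particular to ligase genes. The annotation sets these classes in part. It gives no 3' UTR for Trim55, Fbxl7 and Rnf180 and one of 137 nt for Trim54, so 3' UTR clusters of those genes cannot be seen as such.

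Among genes with a 3' UTR cluster, the median density over the 3' UTR was 1.52 such clusters per kb in heart, 1.70 in muscle and 0.594 in C2C12, beside 1.37, 1.41 and 0.629 over all genes. Of the ligase 3' UTR clusters, 35.8% in heart, 35.5% in muscle and 44.4% in C2C12 lay within 500 nt of an annotated transcript end, and the values over all genes (33.0%, 35.4% and 41.8%) fall within their intervals. Of the intron clusters, 14.1% in heart (9.78 to 19.4%), 14.9% in muscle and 3.85% in C2C12 lay within 300 nt of an exon, with medians of 2530, 3140 and 4260 nt to the nearest exon. Over all genes the shares were 12.5%, 15.1% and 16.5%, with medians of 3670, 2730 and 2480 nt. The C2C12 share in ligase genes is 1 cluster of 26, with an interval of 0.0973 to 19.6%.

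The question of which ligase genes were bound more in 1 source than in another was taken gene by gene. For each pair of libraries a two-sided Fisher's exact test compared the gene's share of clusters, over all genes with at least 5 clusters in the pair, with Benjamini-Hochberg adjustment over all of them. Of 54 ligase genes tested for heart over muscle, 0 had a higher share in heart at adjusted p under 0.05, where 2.52% of the 3771 genes tested did. Just 1, Rnf150, had a lower share in heart, against 2.39% over all genes. At an unadjusted p under 0.05 there were 2 ligase genes, Rnf150 and Rnf6, or 3.70% of those tested, against 14.4% over all genes.

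Rnf150 (chr8:85387255-85615170, mm9, plus strand) held 10 clusters in heart, 22 in muscle and 0 in C2C12. Muscle was the library with the most, and C2C12 had none. As a share this was 2.37 per 10000 clusters in heart against 8.86 in muscle, an odds ratio of 0.267 (95% interval 0.113 to 0.588; adjusted p = 0.0115, Fisher's exact test). All 10 heart clusters and 21 of the 22 muscle clusters were intronic, with 7 and 16 of them in intron 1 of 6, which is 125856 nt long (chr8:85388390-85514245). Introns are numbered in the transcript with the longest coding sequence, and other annotated transcripts of Rnf150 have coding exons inside this intron. The 3' UTR of 7717 nt held 0 clusters in every library. With clusters of at least 50 nt only, 4 were left in heart and 8 in muscle, and the call was lost (adjusted p = 0.287, Fisher's exact test) at a ratio of shares of 0.278, close to the 0.267 over all clusters.

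Where Rnf150 was bound in heart it was mostly bound in muscle at the same place. Of the 10 heart clusters, 8 overlapped a muscle cluster, while of the 22 muscle clusters 7 overlapped a heart cluster. Windows common to heart and muscle in the introns of Rnf150 show what these positions look like, again with UGU in capitals.
Rnf150 intron 1, chr8:85391488-85391517, plus strand: ucuUGUgccUGUGUGUGUGUGUcugcgUGU
Rnf150 intron 1, chr8:85426121-85426150, plus strand: uuuaUGUGUGUGUuucuaUGUGUGUccuug
Rnf150 intron 1, chr8:85467920-85467949, plus strand: cagcUGUgcauuUGUcUGUGUuUGUggaaa
The first holds 8 UGU, the second 7 and the third 5.

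For heart over C2C12, 0 of 39 ligase genes had a higher share in heart, against 0.532% of the 3009 genes tested, and 1, Trim35, had a lower share, against 2.09%. At an unadjusted p under 0.05 there were 2, Trim35 and Fbxl7, or 5.13% of those tested, against 9.24% over all genes. For muscle over C2C12, 0 of 26 had a higher share in muscle, against 0.531% of 2072 genes, and 1, Fbxl7, had a lower share, against 2.70%. At an unadjusted p under 0.05 there were 3, Fbxl7, Rnf150 and Trim35, or 11.5% of those tested, against 11.0% over all genes. The 2 comparisons share the C2C12 library, which held 5115 clusters. With so few there, a higher share in a tissue could pass only for genes with many tissue clusters. The 0 calls for a higher share therefore do not show equal shares.

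Trim35 (chr14:66915868-66930261, mm9, plus strand) held 8 clusters in heart, 9 in muscle and 7 in C2C12. The numbers were close in the 3 libraries, although C2C12 had far fewer clusters in all. Its share was 1.89 per 10000 clusters in heart, 3.62 in muscle and 13.7 in C2C12. For heart over C2C12 the odds ratio was 0.138 (0.0438 to 0.448; adjusted p = 0.0273, Fisher's exact test). For muscle over C2C12 it was 0.264 (0.0876 to 0.836; adjusted p = 0.190, Fisher's exact test), which did not pass. The heart call did not hold when clusters under 50 nt wide were left out (adjusted p = 0.207, Fisher's exact test), and it was also lost when close clusters were merged, when genes of fewer clusters were also tested, or when only 3' UTR clusters were counted (adjusted p = 0.0983, 0.0567 and 0.128 by Fisher's exact test). The ratio of shares was 0.138 and stayed between 0.0895 and 0.142 under these alternatives.

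All 24 Trim35 clusters lay in the last exon, in a 3' UTR block of 2088 nt (chr14:66928174-66930261). Most overlapped between libraries, and 1 in each, the one nearest the transcript end, did not. Heart clusters ran from base 14 to base 2056 of that block, muscle clusters from base 28 to 1994 and C2C12 clusters from base 35 to 1787. Of the 7 C2C12 clusters, 6 overlapped a heart cluster and 6 a muscle cluster, and of the 8 heart clusters 7 overlapped a muscle cluster. The C2C12 clusters were narrower, with a median width of 44 nt, against 106 nt in heart and 115 nt in muscle.

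**Figure D3:**
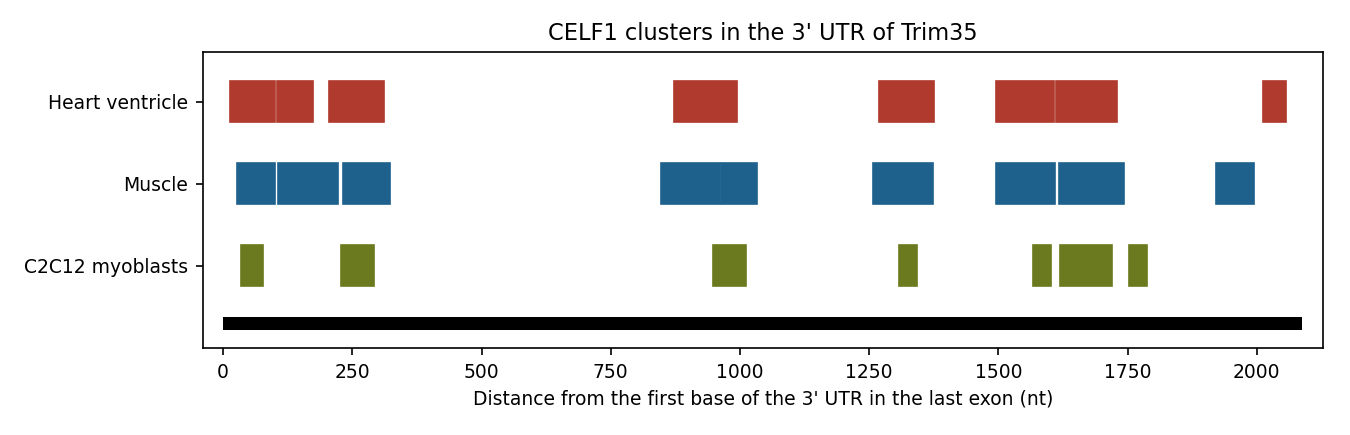
CELF1 clusters in the last exon of Trim35, drawn to scale as boxes, 1 row per library, with the distance from the first base of that exon's 3' UTR in nt on the horizontal axis and the 2088 nt 3' UTR block as a black bar. Of the 7 C2C12 clusters, 6 overlap a heart and 6 a muscle cluster, the box of each library nearest the end of the 3' UTR overlaps none of another library, and the C2C12 boxes are mostly narrower.

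Fbxl7 (chr15:26472839-26825273, mm9, minus strand), an F-box protein reported in human cells to target Aurora A, held 17 clusters in heart, 3 in muscle and 6 in C2C12. Its share was 4.02 per 10000 clusters in heart, 1.21 in muscle and 11.7 in C2C12. For muscle over C2C12 the odds ratio was 0.103 (0.0166 to 0.482; adjusted p = 0.0400, Fisher's exact test). For heart over muscle it was 3.33 (0.964 to 17.7; adjusted p = 0.378) and for heart over C2C12 0.343 (0.129 to 1.06; adjusted p = 0.407, both Fisher's exact test), and neither passed. The muscle call did not hold when close clusters were merged (adjusted p = 0.0627, Fisher's exact test), when genes of fewer clusters were also tested or when only intron clusters were counted (adjusted p = 0.0885 and 0.0714, Fisher's exact test). The ratio of shares was 0.103, and 0.116, 0.103 and 0.144 under these alternatives.

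Most heart clusters of Fbxl7 lay at places that the other libraries did not mark. Intron 2 of 3, of 236460 nt, held 10 clusters in heart, 1 in muscle and 6 in C2C12. Of the 17 heart clusters, 1 overlapped a muscle cluster and 1 a C2C12 cluster. Of the 3 muscle clusters, 1 overlapped a heart cluster and another a C2C12 cluster. Of the 6 C2C12 clusters, 1 overlapped a heart cluster and another a muscle cluster. A further 3 heart clusters lay 1828 to 2507 nt beyond the annotated end of the gene, which has no 3' UTR in the annotation used, and were counted in no part of it.

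**Figure D4:**
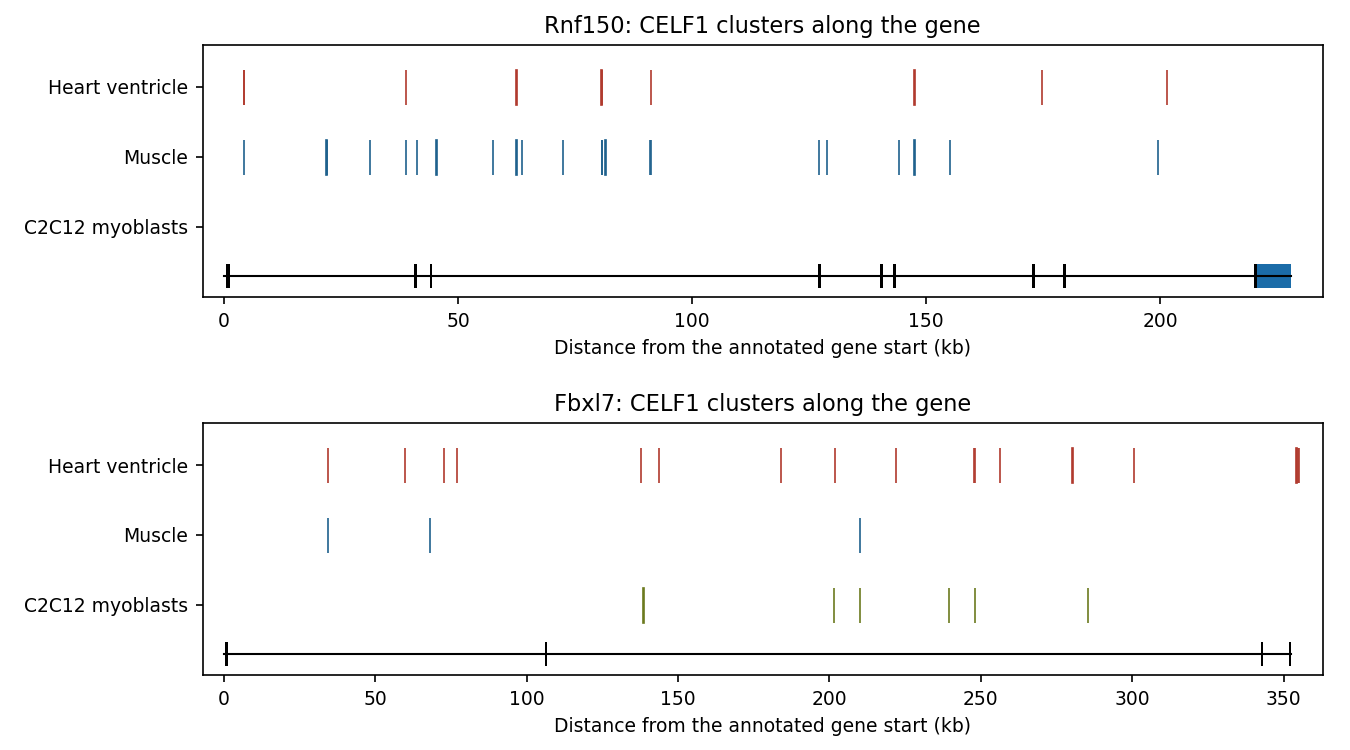
CELF1 clusters (vertical marks, 1 row per library) along Rnf150 and Fbxl7, with distance from the annotated gene start in kb on the horizontal axis. Exons are black bars on the gene line and the 3' UTR is blue. Rnf150 carries 10 heart, 22 muscle and 0 C2C12 clusters, none in its 3' UTR, and Fbxl7 carries 17, 3 and 6, of which 3 in heart lie past the annotated end.

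Apart from the tests, genes with at least 5 clusters in 1 library and 0 in another were counted. With at least 5 in heart and 0 in muscle there were 3 ligase genes of 100 bound in the pair, Fbxo34, Rnf41 and Trim37, each with 6 in heart (3.00%, against 3.67% over all genes). Rnf41 (Nrdp1) is known for degrading the receptor ErbB3, and Trim37 is a peroxisomal and centrosomal ligase mutated in mulibrey nanism in humans. Next came Trim55 and Trim8, with 4 each in heart and 0 in muscle. In the other direction, with at least 5 in muscle and 0 in heart, there were 0 of 100 (background 0.525%). The highest were Trim16 with 4 in muscle and Rnf8, a ligase of the DNA damage response, with 2, followed by Fbxo33, Fbxo6 and Fbxw2 with 1 each.

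Against C2C12 the counts were larger. With at least 5 clusters in heart and 0 in C2C12 there were 26 of 99 ligase genes (26.3%, against 18.5% over all genes), and with at least 5 in muscle and 0 in C2C12 there were 16 of 84 (19.0%, against 13.3%). Rnf13, Fbxo11, Fbxl20, Fbxo3 and Rnf11 led for heart, and Rnf150, Fbxo3, Fbxo32, Rnf11 and Fbxl20 for muscle. None of the ligase genes with 0 clusters in C2C12 had a higher share in a tissue by the adjusted Fisher's exact test. With so few clusters in C2C12 the test had little reach for these genes, so this does not show equal binding. Rnf13, with 17 clusters in heart and 0 in C2C12, had p = 0.246 before adjustment and 0.978 after it by Fisher's exact test. No ligase gene had at least 5 clusters in C2C12 and 0 in a tissue (background 0.0812% against heart and 0.309% against muscle).

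Genes bound in C2C12 and in neither tissue had few clusters. Trim41 had 2 and Fbxl2, Fbxo36, Fbxo5 and Rnf126 had 1 each, while Rnf121 had 1 in C2C12, 1 in heart and 0 in muscle. Fbxo5 (Emi1) is an inhibitor of the anaphase-promoting complex in dividing cells. With 1 or 2 clusters these genes are at the limit of what a count can show.

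The ligases known from striated muscle were looked at as a group whatever their values. Of 13 such genes, 12 were bound in heart, 8 in muscle and 0 in C2C12, with 51, 31 and 0 clusters. Over all genes with a cluster in any library, 85.3%, 66.5% and 34.3% were bound. The list also holds a gene with no cluster, Fbxl21, a kind which that background leaves out. The clusters in the 13 genes were 0.121% of all clusters in heart (0.0899 to 0.159%) and 0.125% in muscle (0.0848 to 0.177%), and 0 of 5115 in C2C12, which allows a share of up to 0.0587% by 3 counts of the total and of up to 0.0721% by the exact interval. The intervals of both tissues lie above both limits. These genes were picked with earlier results of these data known, so their counts are a description.

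Fbxo32 (atrogin-1) held 9 clusters in heart, 9 in muscle and 0 in C2C12, of which 6 in heart and 4 in muscle lay in its 3' UTR of 1387 nt. Trim63 (MuRF1) had 6, 4 and 0, of which 5 and 3 lay in its 3' UTR of 714 nt. All 4 muscle clusters of Trim63 overlapped a heart cluster, while 4 of the 9 muscle clusters of Fbxo32 did. Their common 3' UTR windows are shown because both genes are the best known ligases of muscle atrophy.
Fbxo32 3' UTR, chr15:58012409-58012438, minus strand: ucugggaggcaaUGUcUGUGUuucaUGUaa
Trim63 3' UTR, chr4:133885071-133885100, plus strand: uuuUGUaUGUuuuuaaaaUGUgauuuuUGU
Trim63 3' UTR, chr4:133885314-133885343, plus strand: ggauaggacugaauuUGUGUuauaUGUUGU
Each window holds 4 UGU. In the first Trim63 window they are spread over AU-rich sequence, and in the second they lie close together at its 3' end.

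The other MuRF genes were bound in introns. Trim54 (MuRF3) held 5 clusters in heart, 3 in muscle and 0 in C2C12, and Trim55 (MuRF2) had 4, 0 and 0. Trim72 (MG53), which acts in membrane repair, had 4, 4 and 0, of which 3 in each tissue lay in the 3' UTR and all 4 heart clusters overlapped one of muscle. Trim32, mutated in a human limb-girdle muscular dystrophy, had 4, 2 and 0, all in the 3' UTR.

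Among the F-box ligases of muscle, Fbxo30 (MUSA1) held 3 clusters in heart, 5 in muscle and 0 in C2C12, and all 5 in muscle were in the 3' UTR. Fbxo21 had 5, 3 and 0. Fbxo40, which targets the insulin signalling protein Irs1, had 4, 1 and 0, with 3 and 1 in coding exons. Fbxw7, which degrades cyclin E, Myc and Notch, had 3 clusters in heart only, all intronic, as did Rnf207, and Fbxl22 had 1 in heart. Fbxl21 had 0 clusters in every library. None of the striated muscle ligases that were tested passed in any pair. Trim55, Fbxw7, Rnf207, Fbxl22 and Fbxl21 had fewer than 5 clusters in every pair and were not tested. Fbxo40, Trim32 and Trim72 were tested for heart over muscle only.

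**Figure D5:**
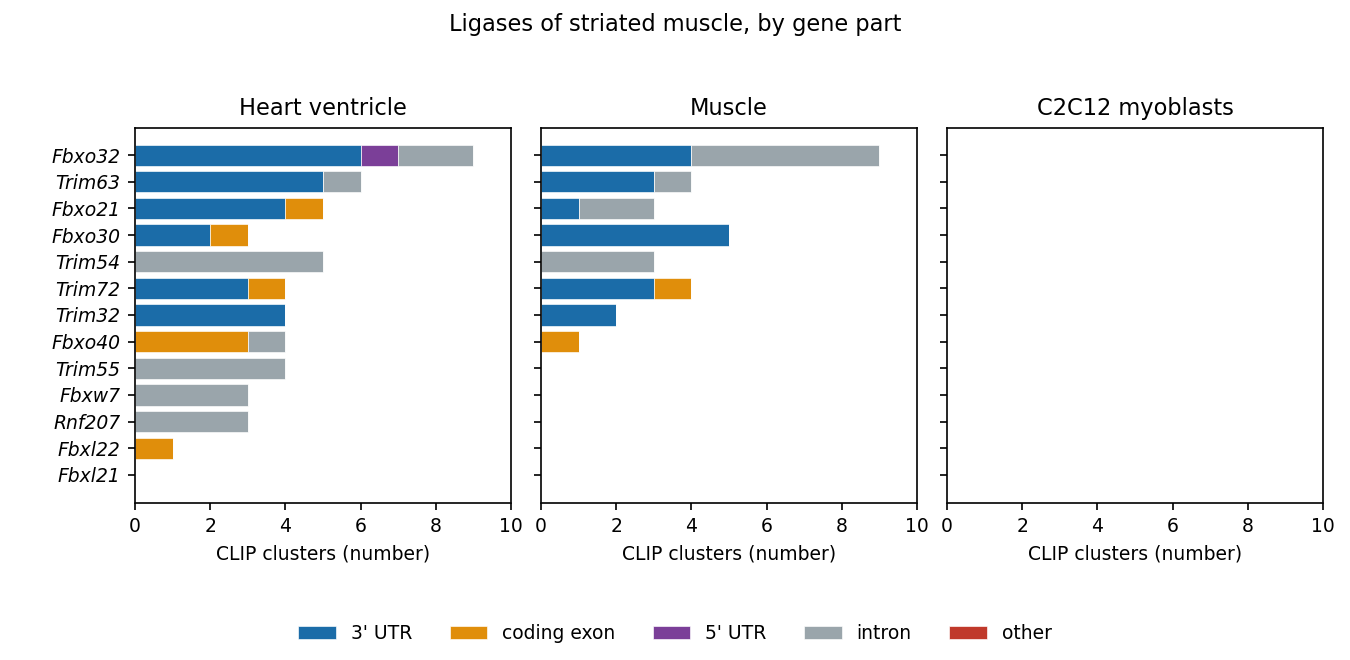
Number of CELF1 clusters (horizontal axis) in the 13 ligases of striated muscle, 1 panel per library, with bars split by gene part. Heart held 51 clusters in 12 of the genes, muscle 31 in 8, and C2C12 none.

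Cell type markers were read in the same way, as clusters per library, to check the labels. Of 10 cardiomyocyte markers, 9 were bound in heart with 368 clusters, against 6 clusters in muscle and 1 in C2C12. Of 10 skeletal fibre markers, 9 were bound in muscle with 111 clusters, against 18 in heart and 0 in C2C12. Myoblast and proliferation markers held 45 clusters in C2C12 (5 of 8 bound), against 6 in heart and 5 in muscle, while Nppa, Mylpf, Myf5 and Mki67 had 0 everywhere. Endothelial markers held 73 clusters in heart (7 of 7 bound), 23 in muscle (5 of 7) and 0 in C2C12, and immune, fibroblast and nerve markers held at most 4 per list in any library. The part of cell types other than muscle in the counts above was not tested, and in whole tissue fewer cells of a type and less RNA per cell cannot be told apart.

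Positions marked in more than 1 library were then counted. Of the 285 muscle clusters, 57.9% (51.9 to 63.7%) shared at least 1 base on the same strand with a heart cluster, where the value over all muscle clusters was 52.8%. Of the 438 heart clusters, 37.0% (32.5 to 41.7%) shared a base with a muscle cluster, where the value over all heart clusters was 30.9%. Both values over all genes are below the ligase share, and the heart interval excludes its value while the muscle interval includes it. Sharing was more frequent in 3' UTRs, with 60.3% of heart clusters there shared with muscle, against 21.4% of heart clusters in introns. The same split was 53.9% and 19.0% over all genes.

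Of the 46 C2C12 clusters in ligase genes, 32.6% (19.5 to 48.0%) shared a base with a heart cluster and 28.3% (16.0 to 43.5%) with a muscle cluster, where the values over all C2C12 clusters were 33.9% and 25.0%. In 3' UTRs 11 of 18 C2C12 clusters were shared with heart and 11 of 18 with muscle, against 4 and 2 of 26 in introns. Trim35 alone gave 6 of the 11 in each case. All told, heart and muscle had 126 stretches in common in the 3' UTRs of 41 ligase genes, 47 in introns of 21 genes and 8 in coding exons of 5 genes.

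UGU was present in 98.2% (96.4 to 99.2%) of the heart clusters in ligase genes, 98.9% (97.0 to 99.8%) of the muscle clusters and 95.7% (85.2 to 99.5%) of the C2C12 clusters. Over all clusters the values were 98.3%, 98.4% and 86.4%. At least 2 UGU were found in 89.5%, 90.2% and 71.7% of the ligase clusters, with 89.7%, 89.3% and 69.1% over all clusters. Per 100 nt there were 8.39, 7.45 and 8.35 UGU in ligase clusters and 8.79, 7.86 and 8.09 in all. The median ligase cluster was 55 nt wide in heart, 54 nt in muscle and 37 nt in C2C12, and the part of cluster width in these shares was not tested.

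The partners of the ligases in the pathway were counted from lists of 88 genes that are not members. The background for these lists was 85.3% bound in heart, 66.5% in muscle and 34.3% in C2C12. It is taken over all genes with a cluster in any library, while the lists also hold genes with no cluster. Of 7 SCF core and regulator genes, 5 were bound in heart, 5 in muscle and 4 in C2C12. Skp1 had 6, 5 and 1 clusters, Cul1 had 6, 4 and 3, all outside the 3' UTR, and Rbx1 had 2, 2 and 2, all in the 3' UTR. Of the 7 other cullins, 6, 6 and 4 were bound. Of 30 E1 and E2 enzymes, 24 were bound in heart, 22 in muscle and 11 in C2C12, with 175, 150 and 12 clusters.

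Of 20 HECT ligases, which take up ubiquitin themselves before passing it on, 17, 16 and 12 were bound, with 210, 150 and 28 clusters, led by Nedd4 with 30, 29 and 5. Of 24 other RING ligases, 23, 23 and 12 were bound, with 243, 193 and 30 clusters. By the Fisher's exact test, 0 of 63 listed genes tested differed between heart and muscle and 0 of 55 between heart and C2C12. For muscle over C2C12, 0 of 49 were higher and 1 was lower, the HECT ligase Herc4 with 1 cluster in muscle and 5 in C2C12 (ratio of shares 0.0412, adjusted p = 0.0253, Fisher's exact test). Over all genes tested, 2.52% were higher and 2.39% lower for heart over muscle. The values were 0.532% and 2.09% for heart over C2C12, and 0.531% and 2.70% for muscle over C2C12.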

How the data were processed

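The authors trimmed adapters, used a random barcode to collapse identical reads, and mapped the rest to mm9 and splice junctions with Bowtie and TopHat (versions not given in the sources used here), keeping unique matches. The files they deposited give the start, end, strand and Entrez identifier of each cluster, called separately per library. Another deposited column is 1e-06 throughout and was not used. The files hold no read numbers, so the depth behind a cluster is unknown.

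Entrez identifiers were paired with symbols from a RefSeq table of GRCm38.p6, used for names only. For 7 identifiers with 106 clusters no symbol was found. Gene parts were assigned by cluster midpoint from protein-coding transcripts of GENCODE vM1 on NCBIM37 (mm9), in the order 3' UTR, coding exon, 5' UTR, intron, other, and 7981 of 8037 identifiers, with all 108 ligase genes, were matched. Positions count from 1. Intron numbers and lengths refer to the transcript of each gene with the longest coding sequence. No ligase cluster was shared with another gene identifier.

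Named were the 8 members with the most clusters per library, the 5 with the most clusters among those with 0 in the other library of a pair, members with a 3' UTR cluster in all 3 libraries, 13 listed ligases of striated muscle, and members past adjusted p 0.05. Rnf6, Rnf139, the Trim12 and Trim30 copies, Nedd4, Herc4 and further genes of the gene part classes were named after their values were seen. Members, lists and rules were chosen with earlier results of these data known. The per-gene test was tested on simulated data. Alternatives were a width of at least 50 nt, merging of clusters under 50 nt apart, other cluster minimums, other rules for the gene part and for overlap, and leaving out the member with the most clusters. Tests used scipy 1.17.1, tables pandas 2.3.3 and numpy 2.4.6, sequences samtools 1.23.1 and pysam 0.24.0, and figures matplotlib 3.10.9, all under Python 3.11.15. Sequences are from the NCBIM37 genome. Some items are not reported here.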

Additional observations from a re-analysis of the deposited data

How the results depend on the processing

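No paired analysis was possible because each group has 1 library. Of 143 alternatives, 82 left the result in place, 53 moved it and 8 weakened it. In place allows some change, as bound ligase genes in heart fell from 91 to 70 with a minimum of 2 clusters. The 82 also include counts of ligase genes with a higher share in a tissue, where no call was made under any setting. Direction was followed for Rnf150, Trim35 and Fbxl7 only, and each kept it. Their counts came from the same clusters each time, so this is no independent check.

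A minimum of 2 clusters left 5 bound ligase genes in C2C12, and a width of at least 50 nt left 3. That width, which keeps 5 of the 46 C2C12 ligase clusters, gave a ligase share of 0.482% in C2C12, 3' UTR shares of 49.3% in heart, 70.3% in muscle and 100% in C2C12, and intron shares of 41.4%, 24.6% and 0%. This put 3' UTRs above introns in heart and C2C12, where introns led (50.2% and 56.5%, against 40.9% and 39.1%), and C2C12 above muscle for 3' UTRs. With close clusters merged, the heart shares were 35.8% in 3' UTRs and 55.2% in introns.
The width moved position sharing to 1.43% for heart with C2C12 and to 80.0% for C2C12 with heart and with muscle. Asking for 50% of both clusters gave 30.8% for heart with muscle and 47.4% for muscle with heart. At least 2 UGU gave 89.5%, 90.2% and 71.7% in heart, muscle and C2C12, and the width gave 100% in C2C12.

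Over all genes, calls for heart over muscle (95 higher, 90 lower) became 58 and 59 with the width, 0 and 1 with 3' UTR clusters only, 54 higher with intron clusters only and 50 lower with merging. For heart over C2C12 (16 higher, 63 lower) they became 0 and 9 with the width, 0 and 3 with 3' UTR clusters only, and 32 lower with intron clusters only. For muscle over C2C12 (11 higher, 56 lower) they became 1 and 11 with the width, 0 and 6 with 3' UTR clusters only, and 35 lower both with intron clusters only and with no minimum.
Among ligase genes, the 1 lower call for heart over muscle (Rnf150) became 0 with the width and with 3' UTR clusters only, where Rnf150 has none. The 1 lower call in each comparison with C2C12 (Trim35, Fbxl7) became 0 under all 5 alternatives. Of these, intron clusters only could give no call for Trim35, and 3' UTR clusters only none for Fbxl7, since they have no such clusters. Members with at least 3 clusters and 0 in the other library numbered 10 (heart, 0 in muscle), 1 (muscle, 0 in heart), 42 (heart, 0 in C2C12) and 30 (muscle, 0 in C2C12), in place of 3, 0, 26 and 16.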
